A study of Mus musculus with 6 samples.

Results

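The genes described here encode the proteins of the cytosolic ribosome, measured in primary mouse hepatocytes with and without induced miR-143. Members were all symbols that read Rpl or Rps followed by a number, with Rpsa, Rplp0, Rplp1 and Rplp2, in the annotation of the array. Rps6k kinases and symbols with "-ps" were left out, and a member needed at least 1 probe set that names it alone. This gave 71 of the 20416 genes on the array, of which 66 were among the 15312 genes bright enough to test. Of the 80 proteins of the mammalian ribosome, 62 were members, 39 of the large 60S subunit and 23 of the small 40S subunit. Another 8 members were paralogs or like genes. Rps19bp1, a binding protein of RPS19 and not part of the ribosome, met the letter of the rule and was kept. The other 18 ribosomal proteins, Rps27a and Rpl32 among them, were not members; of these Fau, which has a symbol of another form, is described with the related genes. In all, 7 symbols of the rule's pattern appeared only on probe sets shared with other genes.

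Adult mice on the C57BL/6 background, 3 transgenic for a miR-143 allele that doxycycline switches on (miR-143DOX) and 3 wildtype littermates (control), gave the hepatocytes. Both groups drank water with 4 mg/ml doxycycline and 10% sucrose for 8 days, so the controls received the drug without the allele. Cells were freed by perfusing the liver with collagenase and frozen, and their total RNA was read on 1 Affymetrix array per mouse. The labels name neither the promoter nor the cell type that drives the allele, and the level of miR-143 was not analysed here. The samples are named as biological replicates, and the p-values set the group difference against the spread between mice within the groups. That spread was moderated over all genes tested. All values below are log2 intensities after quantile normalization, and a difference is miR-143DOX minus control in limma's fit.

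The cytosolic ribosome reads messenger RNA and joins amino acids into protein, and its 60S and 40S subunits are each built from ribosomal RNA and a fixed set of proteins. Hepatocytes, which make most plasma proteins, hold many ribosomes. Cells hold the messenger RNAs of these proteins in similar proportions and regulate them largely at translation: many begin with a 5' terminal oligopyrimidine (TOP) tract, a C followed by a run of C and U, through which the kinase complex mTORC1 and the RNA-binding protein LARP1 govern their translation.

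Such a start was found in the RefSeq promoter sequences of a minority of the members. An entry (GRCm38.p6) was found for 58 of the 71 members. A C at an annotated start, followed by at least 4 pyrimidines, stood in 11 of the 58 (19.0%), against 3.01% of 27025 genes. An annotated start that lies a few bases off the true one hides a tract, so this count is of these letters at these starts. The windows of 6 members below run 5' to 3' from 10 bases before the start to base 20, with the tract in capitals. They were chosen from the 11 to show what the tract looks like where it was found.
Rps6 (chr4:86857348-86857377, minus strand): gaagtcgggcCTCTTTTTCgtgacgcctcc
Rps18 (chr17:33955646-33955675, minus strand): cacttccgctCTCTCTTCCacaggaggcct
Rps10 (chr17:27635225-27635254, minus strand): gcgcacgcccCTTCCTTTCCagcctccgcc
Rpl35 (chr2:39005112-39005141, minus strand): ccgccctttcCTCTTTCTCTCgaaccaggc
Rpl38 (chr11:114668570-114668599, plus strand): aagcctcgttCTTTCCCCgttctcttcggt
Rplp2 (chr7:141447641-141447670, plus strand): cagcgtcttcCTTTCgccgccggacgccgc
The tracts differ in length, from 5 bases in Rplp2 to 11 in Rpl35, and Rps6 carries 5 U (written T) in a row.

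Other promoter motifs were counted on both strands of the 300 bases around the start, 250 before it and 50 from it on. The ETS-type motif CCGGAAG was present in 24 of 58 members (41.4%) and in 9.93% of all genes. The YY1-type motif GCCATNTT was present in 11 (19.0%), against 6.96% of all genes. TATAAA was found in 7 members (12.1%), against 15.7% of all genes. These matches describe letters in a window and were not tested as binding sites.

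No ribosomal protein gene differed between miR-143DOX and control hepatocytes after adjustment over all genes. At 5% false discovery rate (FDR) in limma, 0 of 66 passed, and the share of all genes was 0%. The smallest adjusted p of a member was 0.9997, and that of any gene was 0.735. At an unadjusted p under 0.05 there was 1 member higher, Rpl19, and 1 lower, Rpl5. Each makes 1.52% of the members, against 1.38% of all genes higher and 1.68% lower. The members' counts thus lay at the background of the whole array. Their median difference was 0.05, and that of all genes was 0.01.

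Of the 66 members, 40 (60.6%) lay above 0 and 26 below, against 52.4% of all genes above 0. The difference was larger than the gene's residual SD, as limma moderates it over all genes, for 11 members (16.7%), against 20% of all genes. Its median size was 0.11, below the median standard error (SE) of 0.16. The 95% interval lay within a 2-fold change (log2 of 1 in either direction) for 64 of the 66 members, and within 0.5 for 37 (56.1%). The 60S proteins had a median difference of 0.02, with 21 of 37 above 0. The 40S proteins had a median of 0.04, with 14 of 23 above 0. The sign of the members' median rested on single arrays. It was -0.07 with control replicate 3 left out and 0.13 with control replicate 1 left out. Leaving out miR-143DOX replicate 1, 2 or 3 gave -0.01, 0.02 and 0.11.

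**Figure D1:**
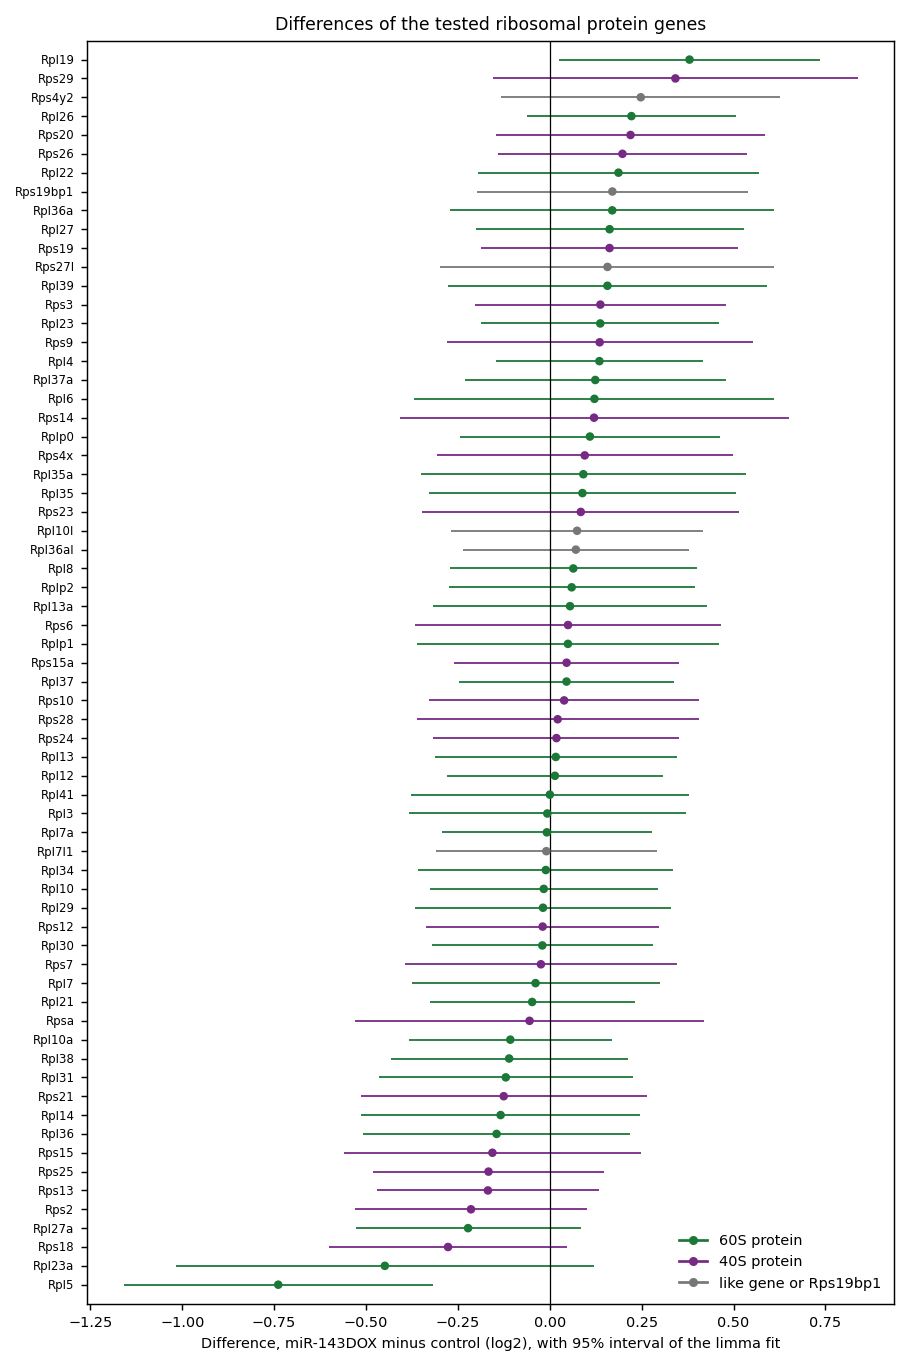
Differences of the 66 tested members (miR-143DOX minus control, log2; points) with the 95% interval of the limma fit (lines), coloured by subunit and sorted from the highest to the lowest. The interval of Rpl19 (0.03 to 0.74) lies above 0 and that of Rpl5 (-1.16 to -0.32) below it; the other 64 include 0.

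Rpl5 had the smallest p of the members. With RPL11 and the 5S ribosomal RNA, its protein forms the particle that binds the ubiquitin ligase MDM2 when ribosome assembly fails. Rpl5 measured 5.37, 4.62 and 5.07 in the miR-143DOX mice and 5.64, 6.02 and 5.62 in the controls. Every miR-143DOX value lay below every control value. The difference was -0.74 (SE 0.19, 95% interval -1.16 to -0.32), or 1.67-fold lower, with an unadjusted p of 0.00243 and an adjusted p of 0.9997 in limma. It rests on 1 probe set, whose mean of 5.39 lies just above the limit of 5.06 under which genes were left out as dim. No detection call was used, so such a value cannot be told from background.

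Rpl11, the partner of Rpl5, fell under that limit and was not tested. Its 1 probe set read 5.88, 2.47 and 2.74 in miR-143DOX against 3.26, 3.82 and 4.96 in control. The miR-143DOX mice held both the highest and the lowest value, and the SD over the 6 arrays was 1.33. The particle was therefore measured by 1 tested gene only.

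Rpl19, a 60S protein near the rim of the exit tunnel and a common reference gene, measured 7.29, 7.50 and 7.44 in miR-143DOX and 7.11, 7.28 and 6.70 in control. The lowest miR-143DOX value lay just above the highest control value. The difference was 0.38 (SE 0.16, interval 0.03 to 0.74), or 1.30-fold, with an unadjusted p of 0.0379 in limma. Both of its probe sets lay above 0, at 0.35 and 0.41. Without control replicate 3 the difference was 0.22, with a p of 0.197.

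In all, the groups did not overlap for 5 members. Rpl19, Rpl26 and Rpl4 were the 3 whose miR-143DOX values all lay higher (4.55%, against 3.4% of all genes), and Rpl5 and Rpl10a the 2 whose values all lay lower (3.03%, against 3.73%). Rpl26, which sits at the exit of the tunnel, measured 7.74, 7.86 and 7.82 in miR-143DOX and 7.71, 7.52 and 7.53 in control. Its difference of 0.22 (SE 0.13) had an unadjusted p of 0.114 in limma and was 0.02 when the median of its 3 probe sets was taken. Rpl4, whose protein lines the tunnel, measured 10.91, 10.82 and 10.84 in miR-143DOX and 10.81, 10.74 and 10.62 in control, a difference of 0.13 (SE 0.13). Both are narrow gaps.

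Rpl10a, the protein of the L1 stalk, from which the spent transfer RNA leaves, measured 8.65, 8.72 and 8.72 in miR-143DOX and 8.89, 8.79 and 8.75 in control. The difference was -0.11 (SE 0.13), and the brightest of its 3 probe sets pointed the other way, at 0.10. Rpl10a was also among the members with the least spread, with an SD of 0.0785 over the 6 arrays.

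**Figure D2:**
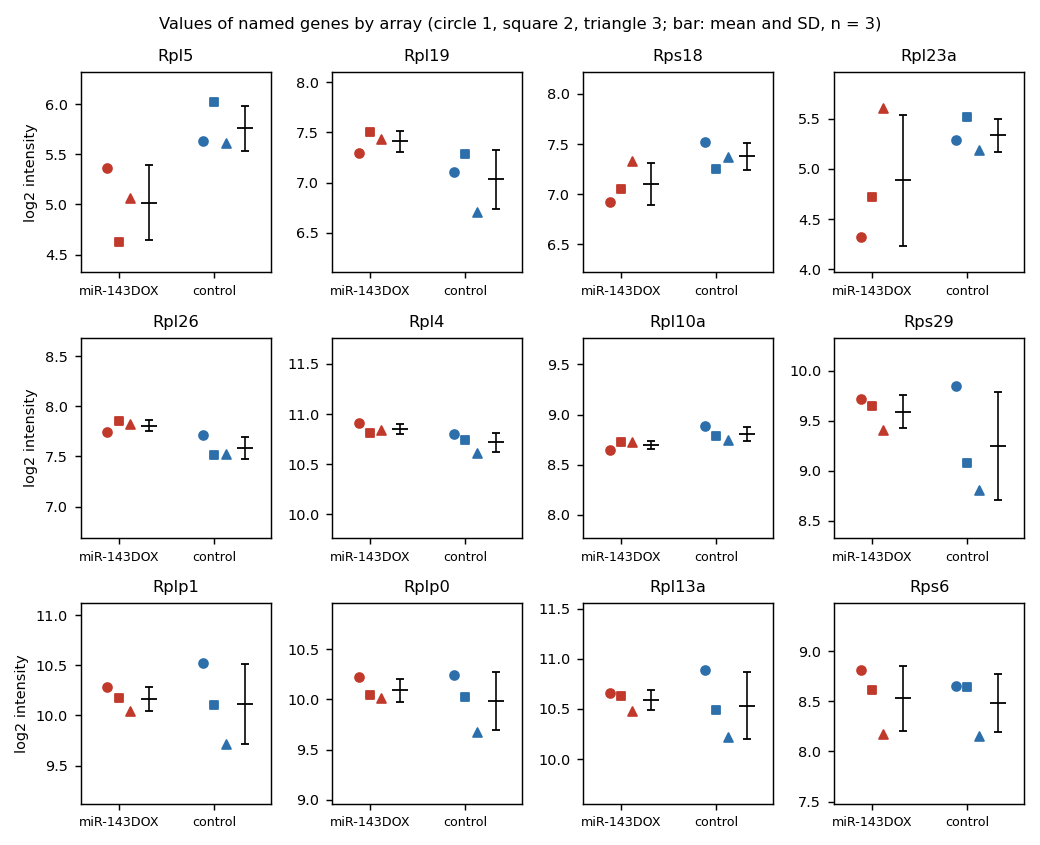
Log2 intensity of 12 members on each of the 6 arrays (1 mouse each), with miR-143DOX in red and control in blue, each point 1 array and each black bar the group mean and SD (n = 3). Rpl5, Rpl19, Rpl26, Rpl4 and Rpl10a have groups that do not overlap, while Rps29, Rplp1, Rplp0 and Rpl13a span more among the controls than among the miR-143DOX mice.

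The next members by p had overlapping groups. Rps18, of the head of the 40S subunit and a common reference gene, measured 6.92, 7.05 and 7.33 in miR-143DOX and 7.52, 7.25 and 7.37 in control, a difference of -0.28 (SE 0.15, unadjusted p = 0.0876 in limma). Rpl23a, which holds the docking site of the signal recognition particle at the tunnel exit, measured 4.32, 4.72 and 5.61 in miR-143DOX and 5.29, 5.52 and 5.19 in control. One miR-143DOX mouse thus had the highest value of all 6, and the difference was -0.45 (SE 0.26, unadjusted p = 0.111 in limma). Without miR-143DOX replicate 3 it was -0.81 for Rpl23a and -0.39 for Rps18, both at an unadjusted p under 0.05. The adjusted p of Rpl23a was then 0.411 in limma, the smallest of any member under any setting tried.

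Rps29, a 40S protein that binds zinc, measured 9.72, 9.64 and 9.40 in miR-143DOX and 9.85, 9.08 and 8.81 in control. The controls spanned the values of the miR-143DOX mice, and the difference was 0.34 (SE 0.23, unadjusted p = 0.159 in limma). The remaining members with the smallest p above 0 were Rps4y2 (0.25), Rps20 (0.22), Rps26 (0.20, at the exit channel of the messenger RNA) and Rpl22 (0.19). Below 0 they were Rpl27a (-0.22), Rps2 (-0.21), Rps13 (-0.17), Rps25 (-0.17) and Rpl36 (-0.14). None of these 9 had an unadjusted p under 0.05 in limma, and with the brightest probe set Rps13 and Rps25 lay above 0 (0.035 and 0.061). Of the 35 members named by the rule for naming, 22 changed sign under at least 1 of 17 alternative settings. The 13 that did not were Rpl4, Rpl5, Rpl19, Rpl22, Rpl23a, Rpl26, Rpl27a, Rpl36, Rps4y2, Rps18, Rps20, Rps26 and Rps29. Of these, Rpl5, Rpl23a, Rps18 and Rps20 have 1 probe set each, so the choice of probe set could not turn their sign. Rpl5 and Rpl23a were also left out where the dim limit was higher, so not every setting could be tried on them.

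Rps2, at the entry of the messenger RNA channel, showed how the mean over probe sets can set a sign. Its gene-level values were 8.47, 8.24 and 8.07 in miR-143DOX and 8.57, 8.47 and 8.39 in control. Of its 5 probe sets, 3 with mean intensities of 10.86, 12.65 and 11.82 had differences of 0.21, 0.27 and 0.10. The other 2, with means of 3.20 and 3.30, had differences of -1.16 and -0.49. With dim probe sets left out the gene's difference was 0.19.

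Differences between probe sets of 1 gene were common. Of the 55 members with several probe sets, 18 had all of them on one side of 0, 15 above and 3 below. The mean levels of a member's probe sets spanned over 4 log2 units for 15 members. The median size of the difference was 0.0968 in the brighter 121 of the 242 probe sets and 0.155 in the dimmer 121. Identical values on all arrays were found for 3 probe sets of Rpl41 and 2 each of Rpl12, Rpl35, Rpl38, Rps10 and Rps28, so these do not count as separate measurements.

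**Figure D3:**
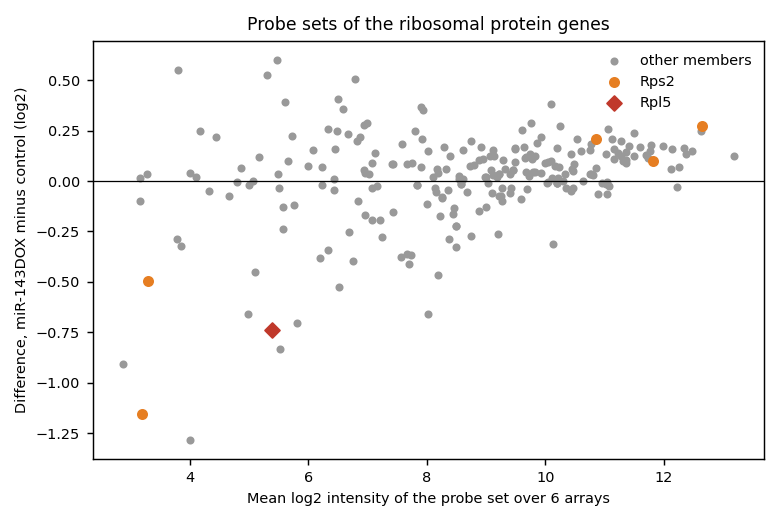
Difference (miR-143DOX minus control, log2) of each of the 242 probe sets that name 1 member alone, against its mean log2 intensity over the 6 arrays, with Rps2 in orange and Rpl5 as a red diamond. Differences scatter more widely at low intensity, and the 2 dim probe sets of Rps2 lie below 0 while its 3 bright ones lie above.

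Ribosomal protein genes have many processed pseudogenes, whose sequence can be near that of the parent. A further 220 probe sets name a symbol of the rule's pattern together with other genes. These include probe sets of the 7 symbols that appeared only there and are not members. For 194 of the 220, all the symbols outside the pattern are predicted genes (Gm and a number). Such probe sets exist for 35 of the 71 members and were not used for any gene. Their median difference was 0.05, with 148 above 0, and that of the 242 own probe sets was 0.05, with 153 above 0.

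By role, the stalk that recruits elongation factors to the 60S subunit had differences near 0. Rplp0, its base and a common reference gene, measured 10.22, 10.04 and 10.01 in miR-143DOX and 10.25, 10.03 and 9.67 in control, a difference of 0.11. Rplp1 and Rplp2, the acidic proteins of the stalk, had differences of 0.05 and 0.06, and Rpl12, at the stalk base, of 0.01. Rplp0, Rplp1 and Rplp2 turned below 0 without control replicate 3. In each of these 4 the groups overlapped. Rplp1 had an SD of 0.40 among the controls and 0.12 among the miR-143DOX mice. The 7 tested proteins around the exit tunnel had a median difference of 0.16, with 5 above 0, from -0.45 in Rpl23a to 0.38 in Rpl19.

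The 9 tested 40S proteins that line the path of the messenger RNA or the decoding site had a median difference of 0.08, with 6 above 0 and none at an unadjusted p under 0.05 in limma. Rpsa, known also as a laminin receptor, measured 7.07, 7.19 and 6.68 in miR-143DOX and 7.42, 7.15 and 6.53 in control. The controls held both the highest and the lowest value, and the difference was -0.06. Its brightest probe set gave -0.66, at an unadjusted p under 0.05. Rps6, the substrate of S6 kinase downstream of mTORC1, measured 8.81, 8.61 and 8.18 in miR-143DOX and 8.65, 8.64 and 8.15 in control. Its groups covered almost the same range, with a difference of 0.05 (interval -0.37 to 0.47).

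Mutations in some ribosomal protein genes cause Diamond-Blackfan anaemia, a failure of red cell production. Of 13 such genes tested, 10 lay above 0, with a median difference of 0.09. The exceptions included Rpl5. Rps29 is also on this list and lay highest, at 0.34.

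Ribosomal protein genes often serve as reference genes in PCR. Rpl13a, one of these, measured 10.66, 10.62 and 10.48 in miR-143DOX and 10.89, 10.49 and 10.22 in control, a difference of 0.06. The controls spanned 0.67 log2 units and the miR-143DOX mice lay inside that span. The 9 tested ribosomal genes on a list of reference genes had a median SD over the 6 arrays of 0.217. The 9 other reference genes, such as Actb, had a median SD of 0.135.

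Like genes and their parents gave small differences on both sides. Rps4y2 had a difference of 0.25 and Rps4x, the X-linked form, of 0.10. Rpl36al had 0.07 and Rpl36a 0.17, and Rpl10l, a testis form, had 0.07 against -0.02 for Rpl10, which is needed for the last steps of 60S maturation. Rpl7l1 had -0.01 (0.24 with its brightest probe set) against -0.04 for Rpl7, and Rps27l, a known p53 target, had 0.16. None of these had an unadjusted p under 0.05 in limma.

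Besides Rpl11, 4 members were too dim to test. Rpl3l, the form of striated muscle, measured 4.65 ± 0.16 in miR-143DOX and 4.91 ± 0.20 in control (SD, n = 3 each), and its parent Rpl3 had a difference of -0.01. Rpl39l, a testis form, measured 3.59 ± 0.11 in miR-143DOX and 3.59 ± 0.08 in control, and Rpl39 had a difference of 0.16. Rpl22l1 measured 4.52 ± 0.54 in miR-143DOX and 4.85 ± 0.20 in control. Rpl28, a 60S protein with 1 probe set of its own, measured 4.55 ± 0.11 in miR-143DOX and 4.33 ± 0.23 in control. The dim limit thus left out 3 of the 8 like genes and 2 ribosomal proteins.

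The members moved together from mouse to mouse within the genotypes. Each gene's deviation from its own mean over the 6 arrays was averaged over the 66 members. This mean deviation was 0.09, 0.02 and -0.08 in miR-143DOX replicates 1, 2 and 3, and 0.18, 0.01 and -0.21 in control replicates 1, 2 and 3. Control replicates 1 and 3 were thus the highest and the lowest array, and the miR-143DOX mice lay between them. In both groups the mean deviation fell from replicate 1 to replicate 3. The sample names give a replicate number only, and a shared preparation by number was not tested. The group means were 0.01 ± 0.09 in miR-143DOX and -0.01 ± 0.20 in control (SD, n = 3 each).

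In control replicate 1, 59 of 66 members (89.4%) lay above their own mean, against 58.5% of all genes. There 32 members (48.5%) had their highest value, against 23.1% of all genes. In control replicate 3, 57 members lay below their own mean. Above it lay 13.6% of the members and 42.3% of all genes. There 39 members (59.1%) had their lowest value, against 23.6% of all genes. These arrays were singled out after their values were seen. The average member was 0.39 log2 units, or 1.31-fold, higher in control replicate 1 than in control replicate 3. For all genes tested the mean deviation lay between -0.03 and 0.03 on every array. It too was highest in control replicate 1 (0.027) and lowest in control replicate 3 (-0.026). In miR-143DOX replicates 1, 2 and 3 it was 0.017, 0.008 and -0.022, and in control replicate 2 it was -0.005. Quantile normalization gives the arrays a common distribution, so the narrow range over all genes was constrained by the processing. The medians of the deposited values already lay close together, from 6.63 to 6.70. In bulk RNA, fewer cells of a type and less RNA per cell cannot be told apart.

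**Figure D4:**
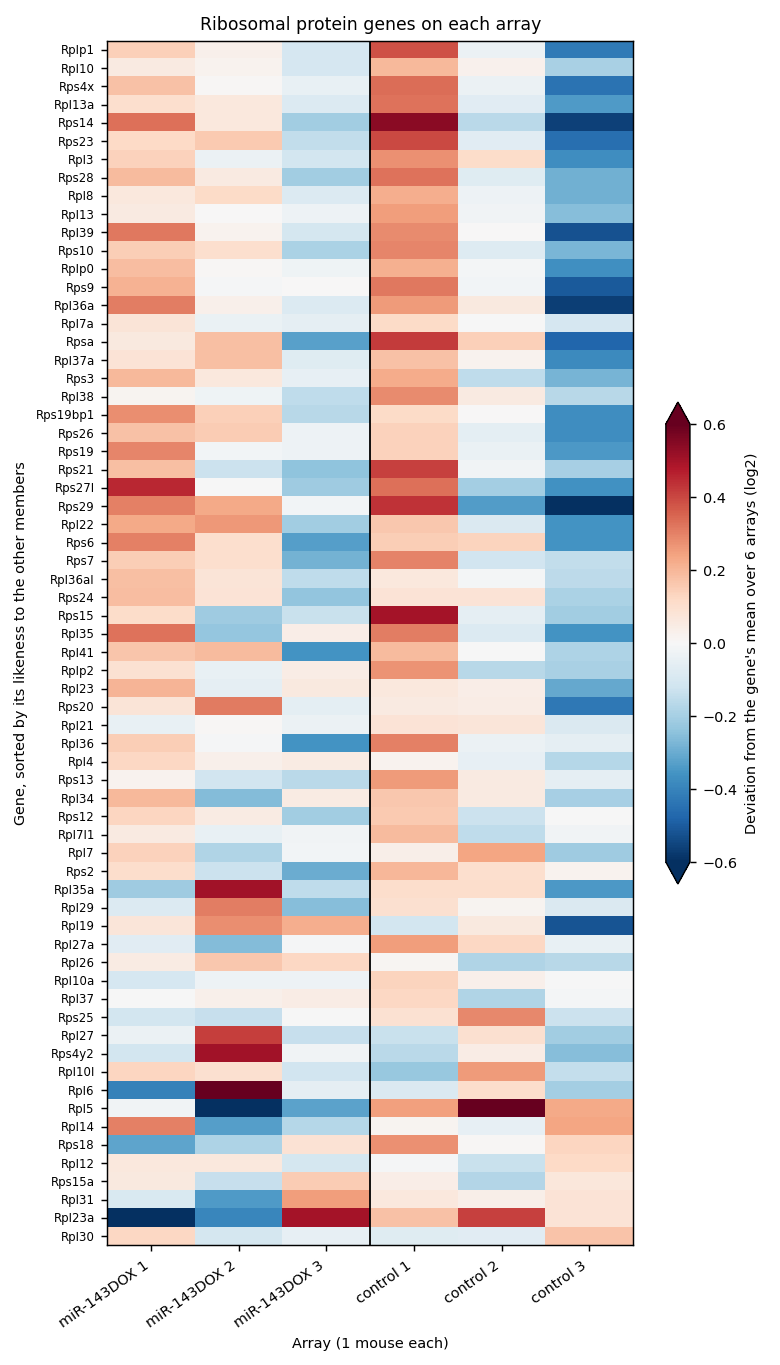
Deviation of each of the 66 tested members (rows, sorted by likeness to the mean of the others) from its own mean over the 6 arrays (columns, log2, red above and blue below the mean). The column of control replicate 1 is red in 59 rows and that of control replicate 3 blue in 57. The mean deviations of the miR-143DOX columns, though not every row, lie between those of control replicates 1 and 3.

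The 40S proteins spanned more than the 60S proteins. Their mean deviation was 0.26 in control replicate 1 and -0.27 in control replicate 3, a gap of 0.53 (1.44-fold), and in control replicate 1 all 23 lay above their own means. For the 60S proteins the gap was 0.33. Whether the subunits differ in this was not tested. The median SD of a member was 0.235 among the controls and 0.168 among the miR-143DOX mice. For all genes it was 0.157 among the controls and 0.166 among the miR-143DOX mice.

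The pattern was present in the brighter member probe sets, which deviated by 0.22 in control replicate 1 and -0.30 in control replicate 3. In the dimmer ones it held in part: control replicate 1 was the highest array, at 0.18, but the lowest was miR-143DOX replicate 3, at -0.11, with control replicate 3 at -0.09. Shared probe sets, which no gene value used and some of which name only symbols that are not members, gave 0.16 and -0.20. Members with a TOP tract at an annotated start (10 tested) had median deviations of 0.27 in control replicate 1 and -0.20 in control replicate 3, and the 43 tested members whose promoter entry held none had 0.18 and -0.20.

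Likeness was measured as Pearson's r between a gene and the mean of the other members over the 6 arrays, which share their labelling and scaling, and is given as a description. The median r of the members was 0.78, and 31 of 66 (47.0%) had an r over 0.8. Over all genes the median was 0.20, with 9.61% over 0.8. Rplp1 (0.987), Rpl10 (0.985) and Rps4x (0.972) were most like the others, and Rpl30 (-0.46), Rpl23a (-0.36) and Rpl31 (-0.34) least. The median was 0.86 for 40S and 0.70 for 60S proteins. Of the 33 brighter members 22 had an r over 0.8, and of the 33 dimmer ones 9.

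The spread of single members ranged widely. Rpl21, Rpl10a and Rpl7a had the smallest SD over the 6 arrays, at 0.0682, 0.0785 and 0.0816. Rpl23a, Rpl5 and Rps29 had the largest of those tested, at 0.495, 0.490 and 0.404. The first pair of these are near the dim limit with 1 probe set each, whereas Rps29 has 3 probe sets and followed the common pattern (r = 0.86).

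Other large complexes moved with the members from mouse to mouse. Mean deviations in control replicates 1 and 3 were 0.19 and -0.17 for 74 genes of the mitochondrial ribosome, which are encoded in the nucleus but made for another ribosome. They were 0.19 and -0.24 for 83 respiratory chain genes and 0.07 and -0.16 for 39 proteasome genes. Of these genes, 36 of 74, 57 of 83 and 18 of 39 had an r over 0.8 with the mean of the ribosomal protein genes. In miR-143DOX replicate 1 the proteasome genes reached 0.17 and the respiratory chain genes 0.19, above the 0.09 of the ribosomal protein genes. The cause of the pattern was not tested.

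**Figure D5:**
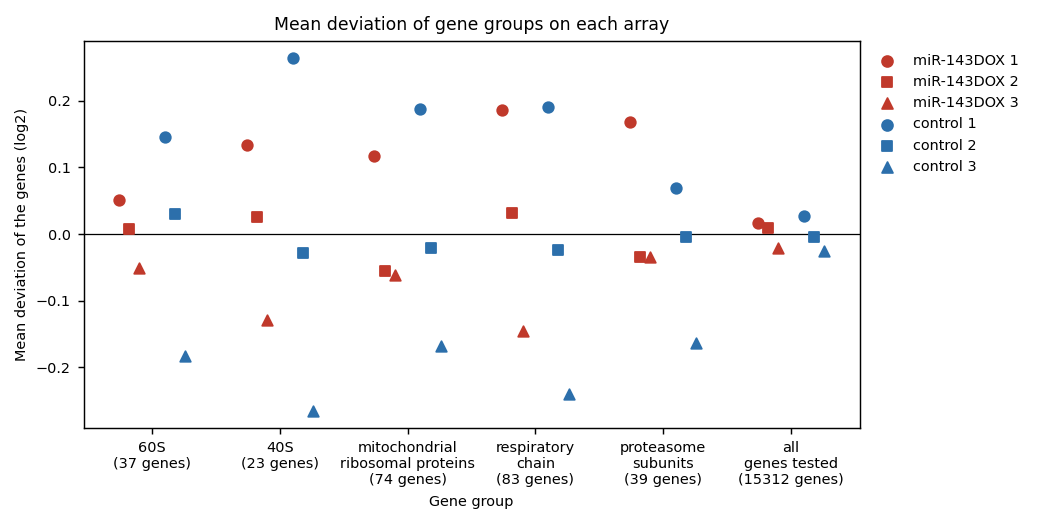
Mean deviation (log2) of gene groups from their own means on each array (1 mouse each), with miR-143DOX in red and control in blue and the symbol giving the replicate number. Control replicate 3 is the lowest array in every group, and control replicate 1 is the highest in all but the proteasome group, where miR-143DOX replicate 1 is. The narrow range over all genes tested was constrained by quantile normalization, and the medians of the deposited values already lay close together.

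Genes that act with the ribosomal proteins were read from lists written for this purpose. Fau, whose product carries a ribosomal protein under another name, had a difference of -0.01. Of 15 other TOP transcripts, 11 lay above 0, with a median of 0.05. Eef1g, the gamma subunit of translation elongation factor 1, measured 8.74 ± 0.16 in miR-143DOX and 8.21 ± 0.38 in control (SD, n = 3 each). The difference was 0.52 (SE 0.19, unadjusted p = 0.0159 and adjusted p = 0.9997 in limma). Eef1g was the only gene of that list at an unadjusted p under 0.05.

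Of 36 ribosome assembly genes 15 lay above 0 (median -0.03), of 26 initiation factors 16 (median 0.02), and of 18 genes of mTORC1, LARP1 and MYC control 6 (median -0.03), with none at an unadjusted p under 0.05 in limma. Of 21 genes of RNA polymerases I and III, which make the ribosomal RNA, 2 lay above 0, with a median of -0.09. In that list Taf1a, a factor of polymerase I initiation, had a difference of -0.42 (unadjusted p = 0.0254 in limma). Of 6 genes of the checkpoint on which RPL5 and RPL11 act, 5 lay above 0, and Cdkn2a, the locus of ARF, had a difference of 0.33 (unadjusted p = 0.0442 in limma). Adjusted over all genes, 0 genes of these lists passed 5% FDR.

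The identity of the cells was checked with markers. All 8 hepatocyte markers were bright enough to test, with Alb (albumin) at 14.4 in both groups, and their median difference was 0.01, with 5 above 0. Of these 8, Serpina1a had the lowest difference, -0.98 (unadjusted p = 0.0218 in limma, groups overlapping). It rests on 1 probe set, whose values ran from 9.36 in miR-143DOX replicate 1 to 11.99 in control replicate 3. Apoa1, at -0.15, had groups that did not overlap. The 7 Kupffer cell, 7 sinusoidal endothelium and 7 stellate cell markers were also all bright enough to test. Of the Kupffer cell markers 6 lay above 0 (median 0.06), and of the stellate cell markers 5 (median 0.04). All 7 endothelial markers lay below 0 (median -0.12), with Clec4g at -0.37 (unadjusted p = 0.0245 in limma, groups not overlapping). Of the 4 tested cholangiocyte markers 2 lay above 0 (median 0.00), and Spp1 was at -0.32 (unadjusted p = 0.0379 in limma, groups not overlapping). None of these markers passed 5% FDR, and the part of other cell types in the members' values was not tested. Of 3 neutrophil markers 0 were bright enough to test, of 4 T cell markers 1 and of 3 B cell markers 1. Of 2 erythroid markers 1 was, with a mean over the 6 arrays of 9.33 for Alas2 and 3.74 for Hbb-b1. The 6 arrays correlated at 0.936 to 0.954 across probe sets.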

How the data were processed

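Per the labels, total RNA of hepatocytes was extracted with Trizol and labelled with the Affymetrix whole transcript sense target protocol. The authors deposited a log value for each probe set and array; its range was read as log2. The submitters' processing notes name Partek and no version. The authors' background correction and scaling, and the genome build of the probe sets, are not given in the sources used here. For this report the deposited log2 values of 234873 probe sets were quantile normalized, because the arrays' 75th percentiles differed by 0.127 and the 95th by 0.135, over a limit of 0.1. The 212097 probe sets with 1 symbol in the platform annotation were averaged per gene; 4475 named several and 18301 none. The lowest 25% of genes by mean (5104, under 5.06) were left out.

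A two-sided moderated test from limma 3.58.1 (R 4.3.3) with group as the sole term compared the genotypes, and p-values were adjusted by Benjamini-Hochberg across the 15312 genes. The number of arrays, 3 per group, limits the precision. The steps were tested on simulated data. Members and lists were chosen with earlier results of these data known. Named members were the 8 with the smallest unadjusted p each way, a set chosen by role (stalk, 5S particle, Rpsa, Rps6, reference genes), like genes beside their parents, dim members and the 3 with the largest and smallest spread. On other lists up to 3 genes with the smallest p could be named. Alternatives are given in the closing section. Promoter sequences are from RefSeq.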

Additional observations from a re-analysis of the deposited data

How the results depend on the processing

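Across 17 alternatives (deposited values, median centring, other dim filters, median or brightest probe set, trend with robust prior, array weights, replicate block, each array left out, and, chosen after seeing the data, centring on the ribosomal protein genes), 0 members passed 5% FDR. The number higher at an unadjusted p under 0.05 (Rpl19) went from 1 to 0 with the median or the brightest probe set and with centring on the ribosomal protein genes, and ranged from 0 to 3 with single arrays left out (3 without control replicate 1; 0 without control replicate 3 and without either of miR-143DOX replicates 2 and 3). The number lower (Rpl5) went from 1 to 0 where the lowest 50% of genes or dim probe sets were left out, which leaves out Rpl5, and to 2 with array weights (Rpl5 and Rpl23a), and ranged from 1 to 3 with single arrays left out (3 without miR-143DOX replicate 3). With array weights the member higher was Rps29. With the brightest probe set 61 members were tested, Rpl5 not among them, and the member lower was Rpsa. Of all genes, 469 had an unadjusted p under 0.05, against 1021 with array weights, 1128 without miR-143DOX replicate 3 and 223 with centring on the ribosomal protein genes. With the replicate block it was 734, with 1 member higher and 1 lower. Deviations of same-numbered mice correlated at 0.11, 0.05 and 0.30, and those of differently numbered mice at -0.26 to 0.15. Replicate 1 of miR-143DOX correlated best with control replicate 2 (0.15), and replicates 2 and 3 with the control of their own number. The main fit did not take the numbers as pairs, and a shared effect of the number was not tested. Of 35 named members, 22 changed sign at least once, and the cause was not tested. With the brightest probe set, Rps2 became 0.27, Rps13 0.035, Rps25 0.061, Rplp2 -0.058, Rpl7l1 0.24, Rpl10 0.072, Rpl21 0.10 and Rpl10a 0.10. With the median of probe sets, Rps2 became 0.21, Rpl3 0.11, Rpl10 0.090 and Rpl21 0.13, and with dim probe sets left out Rps2 became 0.19. With array weights, Rpl7l1 became 0.067, Rpl10 0.0091, Rpl10l -0.017 and Rpl7a 0.014. With single arrays left out, differences ranged from -0.046 to 0.24 for Rplp0, -0.15 to 0.25 for Rplp1, -0.023 to 0.21 for Rplp2, -0.31 to 0.14 for Rpsa, -0.12 to 0.23 for Rps6, -0.10 to 0.23 for Rpl13a, -0.19 to 0.13 for Rpl3, -0.16 to 0.070 for Rpl7, -0.089 to 0.082 for Rpl7l1, -0.12 to 0.077 for Rpl10, -0.020 to 0.22 for Rpl10l, -0.071 to 0.34 for Rpl36a, -0.0026 to 0.16 for Rpl36al, -0.066 to 0.34 for Rpl39, -0.10 to 0.29 for Rps4x, -0.030 to 0.36 for Rps27l and -0.059 to 0.048 for Rpl7a. The members highest in control replicate 1 numbered 28 to 33 and those lowest in control replicate 3 numbered 35 to 40 under the 7 alternatives of scaling, dim filter or probe set choice.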
